A study of Rattus norvegicus with 16 samples.

Results

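The respiratory chain of the liver was followed through 101 probe sets that report its nuclear-encoded subunit genes, out of 8740 on the array. A probe set was taken when its single platform gene symbol began with Nduf, Uqcr, Atp5, Cox4, Cox5, Cox6, Cox7 or Cox8, or was Sdha, Sdhb, Sdhc, Sdhd, Cyc1 or Cycs. They stand for 55 genes, and 7 further probe sets that fit the rule were left out because they carried several symbols. By complex, 40 probe sets belonged to complex I, 1 to complex II, 7 to complex III, 25 to complex IV and 13 to complex V. Another 15 came in by name alone: the assembly factor Ndufaf3, the Ndufa4 paralogue Ndufa4l2, the supercomplex factor Cox7a2l, the ATP synthase inhibitor Atp5if1 and the Cox6c pseudogene Cox6c-ps1. No probe set with 1 symbol reported Sdhb, Sdhc, Sdhd or Cycs, so complex II was represented by Sdha alone.

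The samples were livers of 16 male Fischer F344 rats, 6 weeks old on arrival, that were singly housed and randomly assigned to 4 groups of 4. One group was gavaged with the vehicle, saturated sucrose (the sample titles call it untreated), and the others received 3H-1,2-dithiole-3-thione (D3T), oltipraz (OLT) or a dithiolethione with a tert-butyl group (TBD), each at 0.3 mmol/kg. All groups were dosed every other day over 5 days and killed 24 h after the third dose. Relative to D3T, the ring of OLT also carries a methyl and a pyrazinyl substituent, and that of TBD a tert-butyl substituent; dithiolethiones are best known as inducers of detoxification enzymes. All values are log2 expression values as deposited, 1 array per rat, and differences are compound minus vehicle on the log2 scale.

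The respiratory chain passes electrons from NADH through complex I, and from succinate through complex II, to ubiquinone, then through complex III and cytochrome c to complex IV, where oxygen is reduced. Complexes I, III and IV pump protons, and complex V, the ATP synthase, uses the gradient to make ATP. In hepatocytes this supply pays for glucose and urea synthesis, among other work, and most of the subunits are nuclear-encoded while a core set is made from mitochondrial DNA.

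The median over the whole chain moved little with each compound, while the medians of the complexes differed with D3T and a few probe sets moved far. Differences beyond 1 in either direction were found in 3.45% of the tested members with D3T, 2.3% with OLT and 2.3% with TBD. These shares were larger over all tested probe sets, at 8.72%, 6.58% and 7.57%. Cox6c, an accessory subunit of complex IV, was about 8 to 10 times higher with each compound in its single tested probe set. That fold leans on 1 low vehicle array, vehicle 4. Without it the log2 differences were smaller, at 2.48 with D3T, 2.62 with OLT and 2.33 with TBD. The TBD call was lost without TBD 2. Atp5po, the oligomycin-sensitivity subunit of the ATP synthase peripheral stalk, rose with each compound, and 1 probe set of Cox5b, another accessory subunit of complex IV, fell with each. The middle 50% of the members lay between -0.23 and 0.35 of vehicle with D3T, the compound with the most calls. Over all tested probe sets it lay between -0.24 and 0.17. With OLT the members lay between -0.29 and 0.16, against -0.21 and 0.06, and with TBD between -0.21 and 0.21, against -0.22 and 0.07. The D3T medians were -0.08 in complex I, 0.34 in complex III, 0.32 in complex IV (0.04 with array weights) and 0.38 in complex V. The pooled median thus hides a spread of medians, but whether the complexes differ was not tested. Without D3T 4 the complex IV median was 0.12, and under quantile normalization the complex I median was 0.00. Array by array, the D3T and vehicle medians overlapped in complexes I, III and IV, and not in complex V. The 3 comparisons with vehicle share the 4 vehicle arrays, so their values below stand side by side and are not independent.

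Of the 101 probe sets, 87 were tested, meaning that they lay above their array's 40th percentile on at least 4 arrays, and 86 of these did so on all 16 arrays. The exception, an Ndufb8 probe set, passed on 13 arrays. The tested probe sets cover 53 of the 55 genes. The 14 untested ones averaged 0.58 to 3.08 and include all 3 probe sets of Cox6a2 and both of Cox8b, the muscle and heart isoforms of their subunits. A probe set was called where limma's two-sided test gave an adjusted p (Benjamini-Hochberg, across the 5323 probe sets tested on the array) below 0.05. With D3T, 18 of the 87 were called, 10 higher and 8 lower, which is 20.7% against 18.4% of all tested probe sets (6.18% higher and 12.2% lower). With OLT, 8 were called, 2 higher and 6 lower, or 9.2% against 11.3% (3.38% higher and 7.89% lower). With TBD, 4 were called, 3 higher and 1 lower, or 4.6% against 13% (3.55% higher and 9.47% lower). How these shares stand to the background depended on single arrays and on the scaling. With D3T 8 members (9.2%) were called without vehicle 2 or without D3T 2, against 12.9% and 15.5% of all tested probe sets, 10 (11.5% against 13.7%) without D3T 1 and 11 (12.6% against 22%) under median centring. With OLT 5 (5.75%) were called without vehicle 3 or without OLT 2, against 10.4% and 8.51%. With TBD 12 (13.8% against 15.3%) were called without TBD 4 and 11 (12.6% against 13.1%) under quantile normalization. The split of higher against lower calls moved with the scaling: it was 18 against 6 under quantile normalization and 5 against 6 under median centring with D3T, and 5 against 4 and 2 against 2 with OLT. Over all tested probe sets the D3T split was 329 against 652, 672 against 599 under quantile normalization and 513 against 659 under median centring. Their median difference was 0.08 with D3T, -0.07 with OLT and 0.00 with TBD, beside 0.04, -0.03 and -0.02 over all tested probe sets (the 0.04 became -0.01 under median centring). Without vehicle 2 the members' median was 0.02 with D3T and -0.05 with TBD, without TBD 1 it was 0.09 with TBD, and without vehicle 3 it was -0.03 with OLT.

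Liver identity and other cell types were read from marker lists. All 11 hepatocyte markers on the array were tested, and their mean log2 value per array lay between 12.7 and 13.1 in all groups. With D3T 2 of them rose (Alb by 0.50 and Ttr by 0.56) and 1 fell (Fgb, difference -0.70), with OLT 1 fell (Tat, difference -1.54), and with TBD 0 of 11 were called by limma (3 of 11 at an unadjusted p under 0.05). All 6 Kupffer cell and macrophage markers on the array were tested, and 4 of them fell with each compound: their mean lay at 7.15 to 7.52 on the vehicle arrays, 6.42 to 6.56 with D3T, 6.14 to 6.66 with OLT and 6.28 to 6.61 with TBD. Of 9 stellate cell and fibroblast markers on the array, 5 were tested and 2, 1 and 2 fell with D3T, OLT and TBD (means of 4.32 to 4.60 for vehicle, 3.77 to 3.92, 3.96 to 4.58 and 3.93 to 4.36), while Col1a2, Acta2, Des and Pdgfrb lay below the array median on all arrays. Of 5 sinusoidal endothelium markers, 2 fell with D3T, 0 with OLT and 1 with TBD (means of 5.42 to 5.76 for vehicle, 4.72 to 5.44, 5.25 to 5.96 and 4.91 to 5.60), and Pecam1 and Vwf lay below the array median throughout. Of 12 striated muscle genes on the array, 8 lay below the median on all arrays, the member Cox6a2 among them. In whole liver, fewer cells of a type and less RNA per cell cannot be told apart, and the part of these shifts in the values below was not tested.

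**Figure D1:**
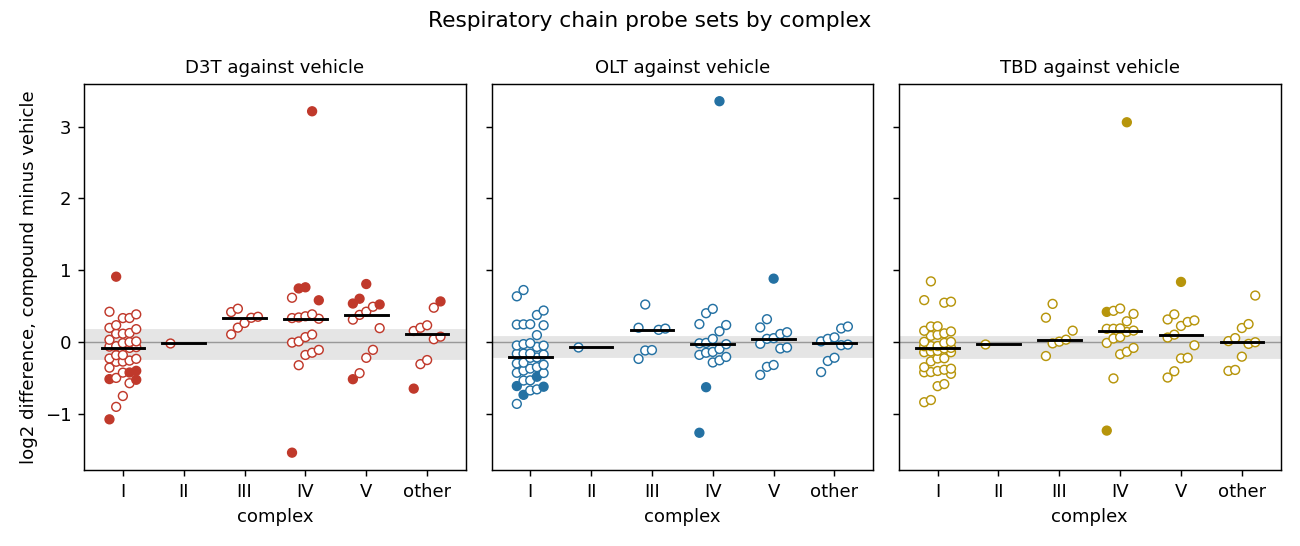
Log2 difference from vehicle (y axis) of each tested probe set, by respiratory complex (x axis), for the 3 compounds. Filled points passed an adjusted p of 0.05, open points did not, black bars are medians and the grey band spans the middle 50% of all 5323 tested probe sets. The Cox6c point stands alone above 3 in each panel.

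Among the subunits of complex IV, Cox6c had the largest difference with each compound. Its tested probe set, M27467_at, read 8.28, 7.89, 8.13 and 5.19 on the vehicle arrays and 10.68, 10.53, 10.41 and 10.71 with D3T. It read 9.06, 11.67, 11.20 and 10.98 with OLT and 11.15, 11.54, 10.66 and 8.38 with TBD. Every compound array lay above every vehicle array, but vehicle 4 stood 2.71 below the next vehicle array and OLT 1 and TBD 4 were the lowest arrays of their groups. The differences were 3.21 ± 0.76 (SE) with D3T, 3.35 ± 0.76 with OLT and 3.06 ± 0.76 with TBD, that is 9.27-, 10.2- and 8.33-fold, with adjusted p of 0.0089, 0.0107 and 0.0153 (limma). Without TBD 2 the TBD difference was 2.69 with an adjusted p of 0.0516, and on the 8 vehicle and TBD arrays alone the adjusted p was 0.0769, so that call was lost in both cases. Without vehicle 4 the difference was 2.48 with D3T, 2.62 with OLT and 2.33 with TBD, and each was still called. The second Cox6c probe set, M27466_at, averaged 0.58 and was not tested, and the pseudogene probe set Cox6c-ps1 differed by 0.08, -0.04 and -0.03. Cox6c therefore rests on 1 probe set.

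Cox5b fell in 1 of its 2 probe sets. D10952_i_at, whose suffix marks a design with an incomplete set of probes, read 10.36, 10.89, 10.78 and 11.34 with vehicle and 9.53, 9.19, 9.31 and 9.18 with D3T. The OLT arrays read 9.81, 9.53, 9.12 and 9.85, and the TBD arrays 9.50, 9.19, 9.58 and 10.17. No compound array reached the lowest vehicle array. The differences were -1.54 ± 0.23 with D3T, -1.26 ± 0.23 with OLT and -1.23 ± 0.23 with TBD (adjusted p 0.000416, 0.00255 and 0.00252). The other probe set, rc_AI229620_s_at, a design that may match several similar sequences, differed by 0.01, -0.28 and -0.01, none of them called. The 2 probe sets of this gene thus disagree.

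In complex V, Atp5po rose with each compound. Its probe set D13127_at read 9.26, 9.08, 9.40 and 8.95 with vehicle and 10.11, 10.05, 9.72 and 10.06 with D3T. OLT arrays read 9.87, 10.10, 10.20 and 10.05 and TBD arrays 10.18, 10.02, 10.08 and 9.77. The groups did not overlap, and the lowest compound array, D3T 3, was above the highest vehicle array. The rises were 0.81 ± 0.12, 0.88 ± 0.12 and 0.84 ± 0.12 with D3T, OLT and TBD (1.75-, 1.84- and 1.79-fold, adjusted p 0.000485, 0.000484 and 0.000517). The second probe set, D13127_g_at, differed by 0.38, 0.20 and 0.39 and was not called.

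**Figure D2:**
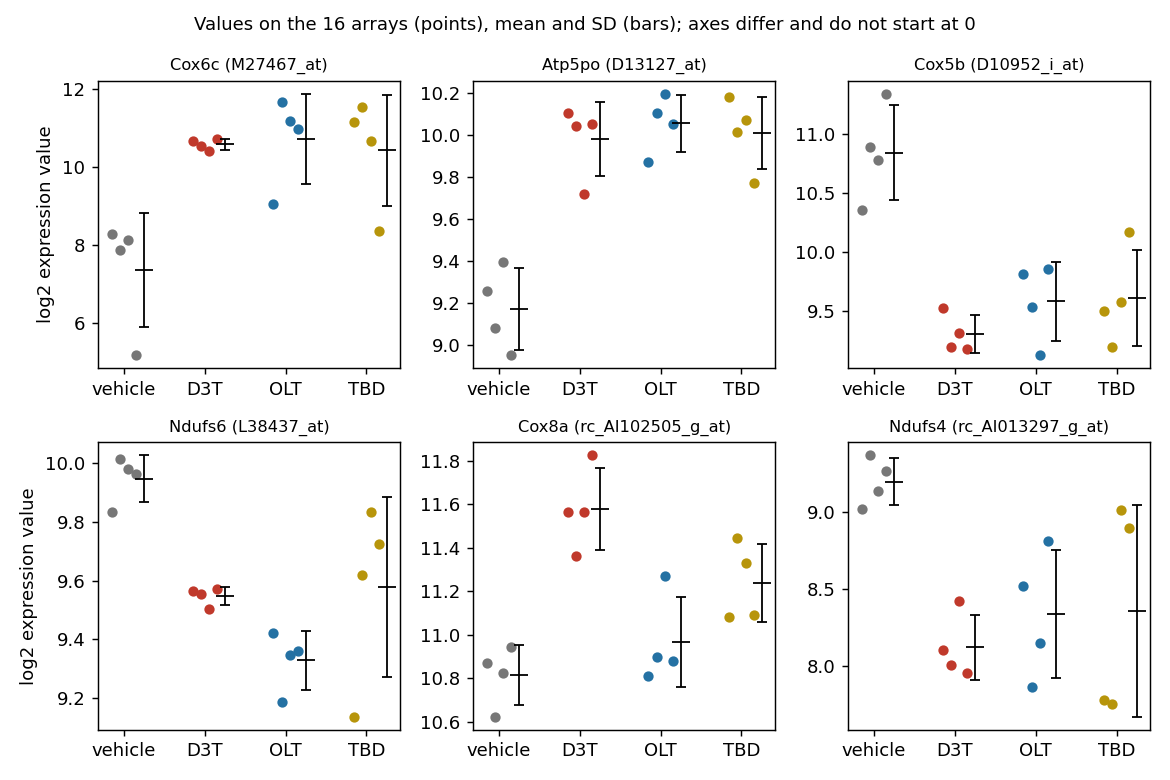
Log2 expression value (y axis) on each of the 16 arrays (points) for 6 probe sets, with the group mean and SD (bars, n = 4). Axes differ and do not start at 0. Vehicle and compound arrays of Cox6c, Atp5po and Cox5b do not overlap, while the OLT arrays of Cox8a lie at the vehicle level apart from 1.

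Promoter sequences are shown for Atp5po and Cox5b and for Cox8a, described next, as examples in which 1 probe set was called with more than 1 compound and the letters match motifs known from promoters of respiratory genes or of Nrf2 targets. They were chosen after the matches were known. RefSeq start sites of assembly GRCr8 were matched for 46 of the 55 genes, and each window runs from 250 bases before the start to 10 after it. Capitals mark matches on either strand to the NRF1 core CGCATGCG (its own reverse complement), the ETS core CCGGAAG, the YY1 core AAGATGGC and the antioxidant response element core TGACNNNGC, the element read by Nrf2.
Atp5po, minus strand of chr11:44657474-44657733: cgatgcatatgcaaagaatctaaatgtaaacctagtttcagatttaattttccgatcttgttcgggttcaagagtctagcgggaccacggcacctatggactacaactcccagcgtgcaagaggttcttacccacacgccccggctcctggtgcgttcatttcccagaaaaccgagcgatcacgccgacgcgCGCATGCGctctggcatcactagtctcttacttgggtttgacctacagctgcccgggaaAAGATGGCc
Cox5b, plus strand of chr9:46417587-46417846: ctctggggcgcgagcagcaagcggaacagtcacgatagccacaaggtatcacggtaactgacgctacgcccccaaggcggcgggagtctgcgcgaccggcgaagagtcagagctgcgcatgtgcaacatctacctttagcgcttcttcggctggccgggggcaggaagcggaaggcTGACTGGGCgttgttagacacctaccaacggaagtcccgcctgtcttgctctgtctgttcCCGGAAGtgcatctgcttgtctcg
Cox8a, minus strand of chr1:213833614-213833873: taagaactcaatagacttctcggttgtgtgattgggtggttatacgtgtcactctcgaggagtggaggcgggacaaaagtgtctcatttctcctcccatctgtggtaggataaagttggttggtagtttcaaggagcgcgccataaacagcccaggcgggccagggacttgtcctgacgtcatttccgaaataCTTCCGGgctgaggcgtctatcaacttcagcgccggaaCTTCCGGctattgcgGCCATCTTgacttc
Atp5po holds an NRF1 core from -58 and a YY1 core from 2, counted from the start site. Cox5b holds an antioxidant response element core from -74 and an ETS core from -14. Cox8a holds ETS cores from -57 and -19 and a YY1 core from -4. Over windows of 300 bases, the YY1 core was found in 11 of the 46 promoters (23.9%), against 3.17% of all 33469 RefSeq promoters and 3.89% of the 4191 whose genes are on the array. The ETS core was found in 9 (19.6%, against 8.75% and 11.9%), the NRF1 core in 2 (4.35%, against 1.66% and 2.34%) and the antioxidant response element core in 8 (17.4%, against 12.1% and 14.3%). By complex, the YY1 core was found in 7 of 22 promoters of complex I, 1 of 9 of complex IV and 2 of 8 of complex V. Of subunit genes with a called rise against vehicle 2 of 6 held it, and 4 of 8 with a called fall. Ndufb5 counts in both sets. Of subunit genes tested without a call 4 of 27 held it. For the ETS core the same counts were 1 of 6, 3 of 8 and 5 of 27, and for the NRF1 core 1 of 6, 1 of 8 and 0 of 27. For the antioxidant response element core they ran the other way, with 0 of 6, 1 of 8 and 6 of 27. These are letter matches and describe the windows only.

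Complex IV had 19 tested probe sets, Cox6c and Cox5b included, of which 4 rose and 1 fell with D3T, 1 rose and 2 fell with OLT, and 2 rose and 1 fell with TBD. The called shares were 26.3%, 15.8% and 15.8%, against 18.4%, 11.3% and 13% of all tested probe sets. The median difference with D3T was 0.32, but 0.13 without vehicle 1, 0.12 without D3T 4, 0.18 without vehicle 2, 0.05 with no filter and 0.04 with array weights. With OLT it was -0.03 (0.01 under quantile normalization, -0.14 without vehicle 2, -0.09 without OLT 3 or OLT 4) and with TBD 0.16 (0.06 without vehicle 2, 0.08 without TBD 3, 0.07 with no filter, -0.03 with array weights). Cox8a, the liver isoform of subunit 8, rose with D3T and TBD in probe set rc_AI102505_g_at. It read 10.87, 10.62, 10.83 and 10.94 with vehicle, 11.56, 11.36, 11.57 and 11.82 with D3T, 10.81, 10.90, 11.27 and 10.88 with OLT, and 11.08, 11.44, 11.33 and 11.09 with TBD. All D3T and TBD arrays lay above the vehicle arrays, and the OLT arrays overlapped them. The differences were 0.76 ± 0.13 with D3T (adjusted p 0.000942), 0.15 with OLT (adjusted p 0.631) and 0.42 ± 0.13 with TBD (adjusted p 0.0425). The TBD call was lost without any one of vehicle 1 to 4, D3T 1, D3T 3, OLT 2, OLT 4, TBD 2 or TBD 3, with a lowest difference of 0.35 (adjusted p 0.132) without TBD 2. The other 3 Cox8a probe sets differed by 0.32 to 0.39 with D3T and by 0.07 to 0.19 with TBD, uncalled.

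Cox4i2, the lung and hypoxia isoform of subunit 4, is dim in this liver and rose with D3T. Its values were 4.35, 4.07, 4.52 and 4.41 with vehicle and 5.09, 5.39, 4.76 and 5.09 with D3T, with no overlap. The difference was 0.75 ± 0.14 (adjusted p 0.00179), against 0.24 with OLT and 0.43 with TBD, which were not called (adjusted p 0.35 and 0.0511). The common isoform Cox4i1, whose probe set rc_AA818226_s_at had the highest mean in complex IV, differed by 0.11, -0.02 and 0.16, and its other 2 probe sets were not called either. Cox6b1, an accessory subunit facing the intermembrane space, rose by 0.58 ± 0.17 with D3T in rc_AI104035_s_at (adjusted p 0.0242), from 9.68, 9.56, 9.79 and 9.94 to 10.39, 10.38, 10.49 and 10.03. The call was lost without vehicle 2, D3T 1, D3T 2 or D3T 3, with a lowest difference of 0.52 (adjusted p 0.079) without vehicle 2. Its second probe set differed by 0.62 and was not called (adjusted p 0.176).

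Cox7b, an accessory subunit, fell with OLT alone among the calls: 11.95, 11.87, 12.33 and 11.64 with vehicle and 11.33, 11.09, 11.52 and 11.34 with OLT. The difference was -0.63 ± 0.18 (adjusted p 0.0334), beside -0.32 with D3T and -0.51 with TBD, which were not called. It was lost without vehicle 1, vehicle 2, vehicle 3, OLT 1, OLT 2 or OLT 4, with a highest adjusted p of 0.0992 and a difference of -0.55 without OLT 2. Whether Cox7b differed between compounds was tested, and no pair of compounds was called. Cox5a, Cox6a1 and Ndufa4, a subunit first assigned to complex I and now placed in complex IV, had no called probe set with any compound.

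Complex V held 13 tested probe sets, and with D3T 4 rose and 1 fell, with a median of 0.38. The called share was 38.5%, against 18.4% of all tested probe sets (6.18% higher and 12.2% lower). The rises include both probe sets of Atp5f1e. Without vehicle 2, without D3T 2 or under median centring, Atp5po was the only complex V probe set still called with D3T. In these settings 12.9%, 15.5% and 22% of all tested probe sets were called. With OLT and TBD the Atp5po rise was the single call (7.69% with each, against 11.3% and 13% of all tested probe sets). The OLT median of 0.05 turned negative without vehicle 1, vehicle 2, vehicle 3, OLT 1 or OLT 4 (-0.07 without OLT 1) and with array weights (-0.07), and it was 0.10 under quantile normalization. The TBD median was 0.10, or 0.25 under quantile normalization, 0.18 without vehicle 4, 0.06 without TBD 2 and 0.04 with array weights. The central stalk subunits Atp5f1d (delta) and Atp5f1e (epsilon), which turn the rotor's motion into ATP synthesis together with the gamma subunit, rose with D3T. Atp5f1d probe set U00926_g_at read 8.70, 8.60, 8.83 and 8.55 with vehicle and 9.32, 9.40, 9.07 and 8.98 with D3T, without overlap, a rise of 0.52 ± 0.15 (adjusted p 0.0231). Its other probe set differed by 0.49 (adjusted p 0.0924). The first call was lost without vehicle 2, vehicle 4, D3T 1 or D3T 2, with a highest adjusted p of 0.0691 and a difference of 0.48 without D3T 1.

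Both Atp5f1e probe sets rose with D3T. The brighter, rc_AI171844_g_at, read 10.77, 10.74, 10.59 and 11.31 with vehicle and 11.46, 11.53, 11.54 and 11.28 with D3T, a rise of 0.60 ± 0.17 (adjusted p 0.0223). The other, rc_AI171844_at, read 8.85, 8.75, 8.65 and 9.13 and then 9.34, 9.63, 9.51 and 9.05, a rise of 0.54 ± 0.15 (adjusted p 0.0216). In both, vehicle 4 lay above D3T 4, so the groups overlap. The call of rc_AI171844_g_at was lost without vehicle 2, vehicle 3, D3T 1, D3T 2 or D3T 3, with a highest adjusted p of 0.0655 and a difference of 0.57 without vehicle 2. The call of rc_AI171844_at was lost without vehicle 2, vehicle 3, D3T 2 or D3T 3, with a highest adjusted p of 0.0671 and a difference of 0.45 without D3T 2.

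Not every ATP synthase subunit rose with D3T. Of the 13 probe sets, 9 passed an unadjusted p under 0.05 (limma, in either direction), against 5 called. The share of all tested probe sets passing an unadjusted p was not counted, here or for the other complexes, lists and pairs of compounds. The unadjusted counts therefore give no comparison with the rest of the array. Atp5pf, coupling factor 6 of the peripheral stalk, fell by 0.52 ± 0.17 with D3T in X54510_g_at (adjusted p 0.0487), from 10.92, 11.34, 10.87 and 11.18 to 10.54, 10.59, 10.74 and 10.37. That call was lost without any one of 10 arrays (vehicle 2, vehicle 4, D3T 1 to 4, OLT 3, OLT 4, TBD 1 and TBD 3), with a highest adjusted p of 0.155 and a difference of -0.43 without vehicle 2. Its second probe set differed by -0.11. The catalytic head subunits were not called: Atp5f1a (alpha) differed by -0.22, -0.32 and -0.23 with D3T, OLT and TBD. Atp5f1b (beta), the highest probe set of the complex, differed by 0.19, -0.09 and 0.10. Neither were Atp5f1c, Atp5pb and Atp5pd, with D3T differences of 0.31, -0.43 and 0.42.

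**Figure D3:**
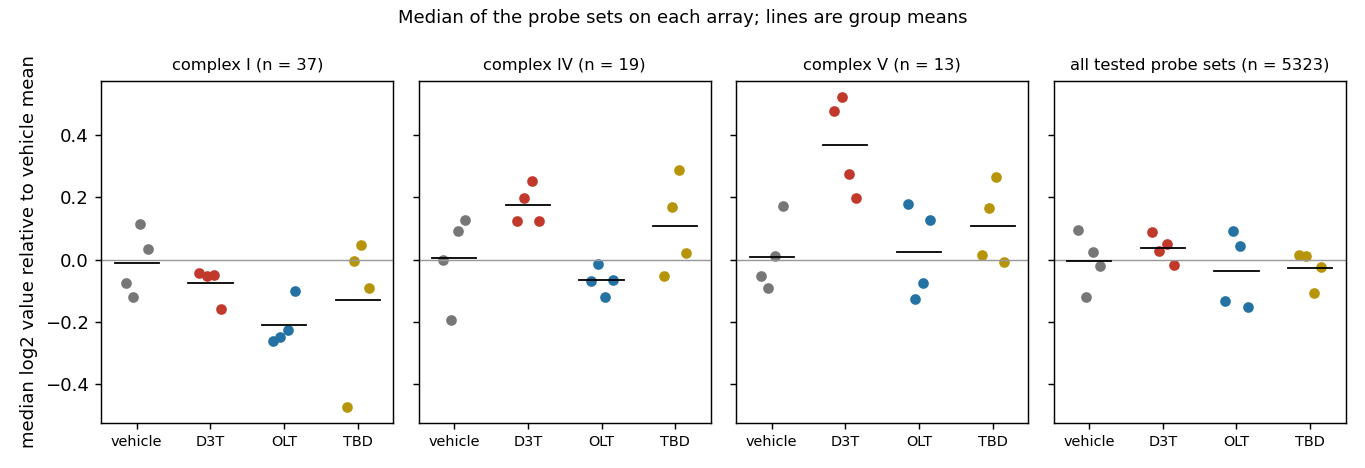
Median, over the probe sets of each set, of the log2 value relative to the vehicle mean (y axis) on each array (points, by group), for complexes I, IV and V and all 5323 tested probe sets; lines are group means. In complex V the D3T arrays lie between 0.20 and 0.52 and the vehicle arrays between -0.09 and 0.17, and TBD 1 lies lowest in complex I, at -0.47.

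Complex I was the largest set, with 37 tested probe sets. With D3T 1 rose and 5 fell, with OLT 0 rose and 4 fell, and with TBD none was called (10 of 37 at an unadjusted p under 0.05, limma), with medians of -0.08, -0.21 and -0.09. The called shares were 16.2% with D3T, 10.8% with OLT and 0% with TBD, against 18.4%, 11.3% and 13% over all tested probe sets. There falls also outnumbered rises. With D3T 24 of the 37 lay below vehicle, against 2188 of all 5323, with OLT 28 against 3327, and with TBD 24 against 3105. Under quantile normalization the D3T and TBD medians were both 0.00. The D3T median was -0.17 without vehicle 2, -0.13 without D3T 2 and -0.01 without vehicle 4, and the TBD median -0.17 without TBD 2, -0.15 without vehicle 2, -0.04 without vehicle 4 and -0.04 without TBD 1. Array by array, the complex I median ran from -0.12 to 0.11 with vehicle, -0.16 to -0.04 with D3T, -0.26 to -0.10 with OLT and -0.47 to 0.05 with TBD, so the D3T and TBD ranges overlap the vehicle range and the OLT range does so at OLT 4. TBD 1 held the low end of the TBD range.

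Ndufs6, an accessory subunit of the NADH-binding module that carries zinc, fell with D3T and OLT. It read 9.83, 10.02, 9.98 and 9.96 with vehicle, 9.56, 9.55, 9.50 and 9.57 with D3T, 9.42, 9.18, 9.34 and 9.36 with OLT, and 9.13, 9.62, 9.83 and 9.72 with TBD. All compound arrays lay below the lowest vehicle array, TBD 3 by the smallest distance. The differences were -0.40 ± 0.12 with D3T (adjusted p 0.0307), -0.62 ± 0.12 with OLT (adjusted p 0.00396) and -0.37 with TBD (adjusted p 0.0564). The D3T call was lost without vehicle 2, vehicle 3, vehicle 4 or any 1 of the 4 D3T arrays, with a highest adjusted p of 0.0821 and a difference of -0.38 without vehicle 2.

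Ndufs4, an accessory subunit whose loss in humans and mice causes a Leigh-like brain disease, had the largest called fall in complex I. Probe set rc_AI013297_g_at read 9.02, 9.37, 9.13 and 9.27 with vehicle, 8.10, 8.01, 8.42 and 7.96 with D3T, 8.52, 7.87, 8.15 and 8.81 with OLT, and 7.78, 7.75, 9.01 and 8.90 with TBD. No compound array reached the lowest vehicle array, but the OLT and TBD arrays were widely spread, and TBD 3 and TBD 4 lay next to vehicle. The fall was -1.08 ± 0.28 with D3T (adjusted p 0.0143), while the differences of -0.86 with OLT and -0.84 with TBD were not called (adjusted p 0.0597 and 0.0622). A second probe set, rc_AI013297_at, differed by -0.90, -0.53 and -0.81, uncalled, and the remaining, dim one by 0.12, -0.02 and -0.01.

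Ndufb5, an accessory subunit of the membrane arm, moved in opposite directions in its 2 probe sets. AA684537_at rose from 7.59, 6.78, 7.81 and 8.03 with vehicle to 8.25, 8.65, 8.39 and 8.56 with D3T, by 0.91 ± 0.21 (adjusted p 0.00687). rc_AA893185_at fell from 8.31, 8.28, 8.81 and 8.36 to 8.14, 8.06, 8.05 and 7.82 with D3T, by 0.42 ± 0.14 (adjusted p 0.0458). It also fell with OLT, to 7.85, 7.91, 7.97 and 8.11, by 0.48 ± 0.14 (adjusted p 0.0353). Neither probe set overlapped between vehicle and these compounds, and the direction for the gene cannot be given. The D3T fall was lost without any one of 12 arrays, all but vehicle 1, TBD 1, TBD 3 and TBD 4, with a highest adjusted p of 0.133 and a difference of -0.36 without D3T 4. The OLT fall was lost without vehicle 3, vehicle 4, OLT 1, OLT 2 or OLT 3, with a highest adjusted p of 0.0934 and a difference of -0.36 without vehicle 3.

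Further falls in complex I were smaller. Ndufb9, the highest probe set of the complex, fell with D3T from 11.12, 11.00, 11.23 and 10.98 to 10.66, 10.28, 10.55 and 10.74, by 0.52 ± 0.14 (adjusted p 0.0195), a call lost without vehicle 3 or D3T 2 (difference -0.43 and adjusted p 0.0625 without D3T 2). Ndufb11 fell with D3T from 10.60, 10.77, 10.70 and 10.41 to 10.14, 10.24, 10.21 and 9.84, by 0.52 ± 0.15 (adjusted p 0.0278), a call lost without vehicle 2, vehicle 3, D3T 1 or D3T 4 (difference -0.43 and adjusted p 0.0917 without D3T 4). Both are accessory subunits of the membrane arm, and in neither did D3T overlap vehicle. Ndufa6 fell with OLT in rc_AA819547_at from 10.75, 10.69, 10.65 and 10.65 to 10.26, 9.77, 10.16 and 10.11, by 0.61 ± 0.15 (adjusted p 0.0148), while its second probe set differed by 0.44 in the other direction, uncalled. Ndufa8 fell with OLT from 9.59, 9.09, 9.83 and 9.37 to 8.58, 8.69, 8.59 and 9.09, by 0.73 ± 0.22 (adjusted p 0.0457), a call lost without any one of vehicle 1, vehicle 3, vehicle 4, D3T 2 to 4, OLT 1 to 3 or TBD 3 (difference -0.61 and adjusted p 0.118 without vehicle 3). The OLT 4 value of Ndufa8 lay just below vehicle 2. The iron-sulphur core subunits Ndufs1, Ndufs7, Ndufs8 and Ndufv2, which carry the electrons, had no called probe set.

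Complexes II and III had no probe set called by limma with any compound; at an unadjusted p under 0.05, 0 of 1 and 4 of 7 passed with D3T, 0 of 1 and 1 of 7 with OLT, and 0 of 1 and 2 of 7 with TBD. Sdha, the flavoprotein that oxidises succinate, differed by -0.02 with D3T, -0.07 with OLT and -0.03 with TBD. In complex III, all 7 probe sets, which stand for 4 genes, lay above vehicle with D3T, as did 58.9% of all tested probe sets. Their median was 0.34 with a range of 0.11 to 0.46, and none passed the test. With OLT 4 of 7 lay above vehicle (median 0.17, or 0.10 without OLT 3 and -0.04 with array weights). With TBD 5 of 7 did. Of all tested probe sets 37.5% lay above vehicle with OLT and 41.7% with TBD. The TBD median of 0.03 was 0.21 under quantile normalization and -0.06 with array weights, and it ran from 0.00 (without TBD 3) to 0.13 (without TBD 1) when single arrays were left out. Cyc1, cytochrome c1, differed by 0.46, 0.52 and 0.53 (adjusted p 0.103, 0.0898 and 0.0789). Uqcrfs1, the Rieske iron-sulphur protein, differed by 0.20, 0.17 and 0.01 in its highest probe set, M24542cds_g_at.

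Of the genes that share the name stem without being subunits, 2 had a call, both with D3T. Atp5if1, which blocks the ATP synthase from running backwards, rose in rc_AA891873_f_at by 0.57 ± 0.17 (adjusted p 0.0278), from 6.38, 6.31, 6.08 and 6.61 to 7.02, 6.91, 6.72 and 7.01. The call was lost without vehicle 2, vehicle 3, D3T 1, D3T 2 or D3T 4 (difference 0.48 and adjusted p 0.0799 without vehicle 3), and its other tested probe sets differed by 0.48 and 0.15. Cox7a2l, which ties complexes III and IV together in supercomplexes, fell in rc_AI232307_at by 0.65 ± 0.18 (adjusted p 0.0238), from 7.31, 7.60, 7.45 and 7.93 to 7.00, 6.64, 7.06 and 7.01. The call was lost without vehicle 2, vehicle 4 or D3T 2 (difference -0.53 and adjusted p 0.0783 without vehicle 4), and the second probe set differed by 0.23. In neither called probe set did D3T overlap vehicle.

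Probe sets of 1 gene often disagreed. Of 23 genes with several tested probe sets, 12 had differences of both signs with D3T, 12 with OLT and 10 with TBD, and the median distance between the extreme probe sets of a gene was 0.41, 0.41 and 0.35. With D3T 11 of these genes had a called probe set, in 2 of them all probe sets were called, and in 1, Ndufb5, the calls ran both ways. The widest distance with D3T was 1.55, in Cox5b, and the narrowest 0.03, in Atp5f1d. Several of the called values above therefore describe a probe set and not a gene. In all, 31 pairs of probe set and comparison were called, for 19 genes, and 13 of them were still called under every one of 11 other settings and without any 1 of the 16 arrays. These were Cox6c, Atp5po, Cox5b, Cox8a, Cox4i2, Ndufs4 and the rise of Ndufb5 with D3T, Cox6c, Atp5po, Cox5b and Ndufs6 with OLT, and Atp5po and Cox5b with TBD. Centring each array on its median ended the calls of Ndufs6, Cox6b1, Atp5if1, Atp5f1d, both Atp5f1e probe sets and Atp5pf with D3T, of Ndufa6, Ndufa8, Ndufb5 and Cox7b with OLT, and of Cox8a with TBD and between D3T and OLT. Quantile normalization ended those of Cox7a2l with D3T, Ndufa8 with OLT and the fall of Ndufb5 with both.

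**Figure D4:**
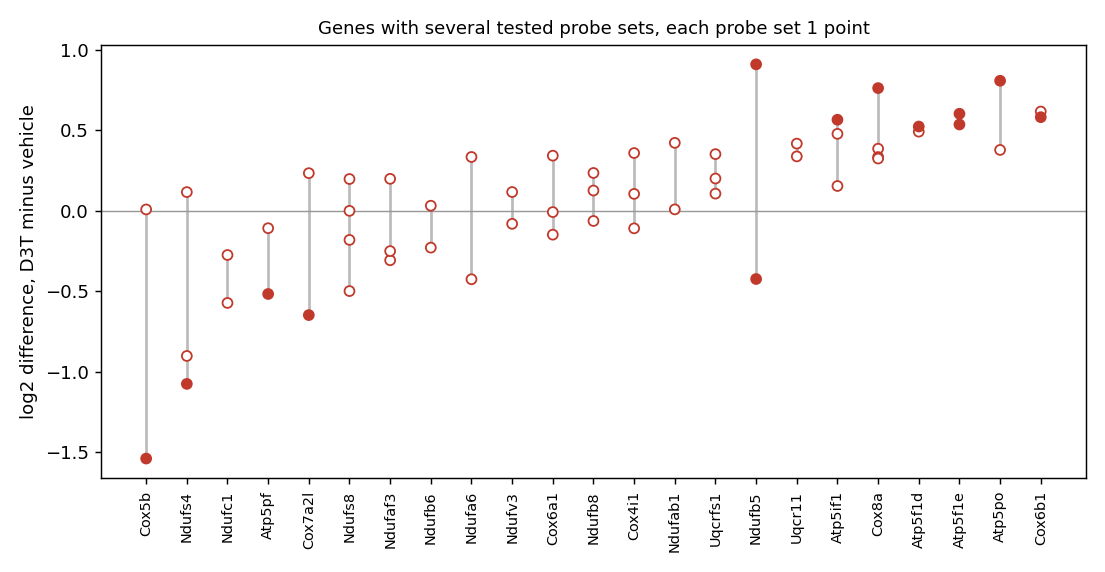
Log2 difference of D3T from vehicle (y axis) for every tested probe set (points) of the 23 genes with several (x axis), grey lines joining the probe sets of a gene. Filled points passed an adjusted p of 0.05. Cox5b, Ndufb5 and Ndufs4 span the widest distances, and both points of Atp5f1e are filled.

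The compounds were also compared with each other at the matched dose and time, in 3 pairs. Between D3T and OLT 1 of the 87 was called, Cox8a (1.15% against 1.07% of all tested probe sets). Its D3T arrays exceeded OLT by 0.61 ± 0.13 (95% interval 0.34 to 0.89, adjusted p 0.0312), every D3T array lying above every OLT array. This call was lost without vehicle 3, D3T 1, D3T 3, D3T 4, OLT 1, OLT 2 or OLT 4, with a highest adjusted p of 0.0937 and a difference of 0.53 without D3T 4. No member was called between D3T and TBD (0.658% of all tested) or between TBD and OLT (0.0564%). At an unadjusted p under 0.05 from the same limma fit, 9 of the 87 differed between D3T and TBD and 3 between TBD and OLT. For Cox6c, D3T minus OLT was -0.14 (95% interval -1.76 to 1.48), D3T minus TBD 0.15 (-1.47 to 1.77) and TBD minus OLT -0.29 (-1.91 to 1.33). These wide intervals leave room for differences of several fold. For Atp5po the same differences were -0.07 (-0.34 to 0.19), -0.03 (-0.29 to 0.23) and -0.05 (-0.31 to 0.22). For Cox5b D10952_i_at they were -0.28 (-0.76 to 0.21), -0.31 (-0.79 to 0.18) and 0.03 (-0.46 to 0.52). For Ndufs6 they were 0.22 (-0.03 to 0.48), -0.03 (-0.29 to 0.23) and 0.25 (-0.00 to 0.51).

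The 5 probe sets with 1 symbol that followed Cox6c most closely over the 16 arrays were, by Pearson correlation, Eef1a1 (translation elongation factor, 0.95), Atp5po (0.91), Gstt2 (a glutathione transferase, 0.90), Plin2 (a lipid droplet protein, 0.90) and Nfix (a transcription factor, 0.87). The arrays share the group differences, so these values describe the likeness and no test is given. Eef1a1 rc_AI008852_at shared the low vehicle 4, OLT 1 and TBD 4: it read 6.13 on vehicle 4, 9.12 on OLT 1 and 7.59 on TBD 4, each the lowest of its group. Its differences were 3.08 with D3T, 2.44 with OLT and 1.97 with TBD, the last of them not called (adjusted p 0.0537) and the OLT call lost without vehicle 4, OLT 2, OLT 3 or OLT 4 (1.93 and adjusted p 0.067 without vehicle 4). Atp5po was the subunit probe set nearest to Cox6c. Vehicle 4, OLT 1 and TBD 4 were also the lowest arrays of their groups in Atp5po D13127_at (8.95, 9.87 and 9.77). The same held for Plin2 (3.31, 4.43 and 4.32), while in Gstt2 and Nfix OLT 1 was not the lowest OLT array. Over the other 86 tested members the correlation with Cox6c ran from -0.92 to 0.91 with a median of -0.04, beside 0.10 over all tested probe sets.

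Other mitochondrial genes were read from lists chosen by function. Of all tested probe sets 18.4% were called with D3T, 11.3% with OLT and 13% with TBD (12.2%, 7.89% and 9.47% lower). Each list held few tested genes, and no list was tested against these shares. The array reported 3 mitochondrially encoded subunits, COX1, COX2 and COX3 of complex IV, and limma called 0 of 3 with any compound (1 of 3 at an unadjusted p under 0.05 with D3T, 0 of 3 with OLT and 0 of 3 with TBD). Their D3T differences were 0.58, -0.01 and 0.28. Of 11 genes tested in the citric acid cycle list, 1 rose and 3 fell with D3T, 1 rose and 2 fell with OLT, and 0 rose and 3 fell with TBD. This list also held Pc and the pyruvate dehydrogenase genes Pdha1, Pdhb, Dlat and Pdhx, which are not enzymes of the cycle itself. The falls were Mdh2, Pdha1 and Pc with D3T, Pdhb and Pc with OLT, and Idh3g, Pdha1 and Pc with TBD. Of these, only Mdh2 and Idh3g belong to the cycle itself. Pdha1 was lost without vehicle 2 or D3T 4 with D3T, and without vehicle 2, vehicle 4, TBD 1, TBD 2 or TBD 4 with TBD. Pc, pyruvate carboxylase, fell with each, with differences of -1.06 ± 0.30 with D3T, -1.54 ± 0.30 with OLT and -1.59 ± 0.30 with TBD (adjusted p 0.0223, 0.00396 and 0.00258), the D3T call being lost without vehicle 2, vehicle 4, D3T 1 or D3T 4 (adjusted p 0.0715 and difference -0.91 without D3T 4). Idh2, the mitochondrial NADP isocitrate dehydrogenase, rose by 0.86 ± 0.14 with D3T (adjusted p 0.000912) and by 0.51 ± 0.14 with OLT (adjusted p 0.032). With TBD it differed by 0.30 and was not called (adjusted p 0.205). The OLT call was lost without vehicle 1, vehicle 2, vehicle 4, OLT 1 or OLT 4 (0.41 and adjusted p 0.0882 without OLT 1). Pdhb, a subunit of pyruvate dehydrogenase, fell with OLT (difference -0.79, adjusted p 0.0411) and Idh3g, a subunit of the NAD isocitrate dehydrogenase, with TBD (difference -0.80, adjusted p 0.0476), each lost without any one of 11 arrays. For Pdhb these were all vehicle and D3T arrays and OLT 1 to 3 (-0.58 and adjusted p 0.121 without OLT 2), and for Idh3g they were all but vehicle 1, D3T 2, D3T 4, OLT 1 and OLT 3 (-0.64 and adjusted p 0.147 without vehicle 4).

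Fewer genes of the other lists were called. The 6 assembly factors and chaperones tested included the member Ndufaf3. Of these 6, Hspa9, the mitochondrial Hsp70 that helps import and fold proteins, fell with D3T, OLT and TBD, with differences of -0.63 ± 0.15, -0.93 ± 0.15 and -0.89 ± 0.15 (adjusted p 0.0106, 0.00178 and 0.0016). Of 4 regulators of mitochondrial gene expression tested, Polg2, the accessory subunit of the mitochondrial DNA polymerase, fell with all 3, with differences of -1.82 ± 0.34, -1.76 ± 0.34 and -1.89 ± 0.34 (adjusted p 0.00204, 0.0043 and 0.00225). Both were called without any 1 array and under all 11 other settings run. Of 7 electron entry dehydrogenases and flavoproteins tested, 1 fell with each compound: Etfdh with D3T (difference -0.47, adjusted p 0.0495), Dmgdh with OLT (-0.87, adjusted p 0.0117) and Etfa with TBD (-0.80, adjusted p 0.0476). Etfdh was lost without any one of the 4 vehicle and 4 D3T arrays, OLT 1, OLT 4 or TBD 3 (-0.42 and adjusted p 0.142 without vehicle 2), and Etfa without any one array except vehicle 1, OLT 1, OLT 2 and TBD 4 (-0.67 and adjusted p 0.151 without vehicle 2). The 11 genes tested as carriers and porins included the member Atp5if1, an inhibitor, through its uncalled probe set D13122_f_at. Of these 11, Slc25a4, an ADP/ATP carrier, fell with D3T by 0.55 (adjusted p 0.0442), lost without any one array except vehicle 1, vehicle 2, TBD 3 and TBD 4 (-0.41 and adjusted p 0.138 without vehicle 4). Slc25a10, the dicarboxylate carrier, fell with OLT by 0.53 (adjusted p 0.0193), lost without OLT 2 or OLT 3 (-0.43 and adjusted p 0.0644 without OLT 3). Of 5 import genes tested, Pmpca, a subunit of the processing peptidase, fell with OLT by 0.61 (adjusted p 0.0161), lost without vehicle 4 (-0.54 and adjusted p 0.0547).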

How the data were processed

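Liver RNA was extracted with Stat-60, labelled with biotin (Enzo kit) and hybridised to 1-colour arrays, per the labels' protocols. The 8740 log2 values per array are those the authors deposited. They come from GCRMA, according to the submitters' processing notes, which name no version. This method subtracts a modelled background, so low values carry little information about fold. The deposited log2 values ran from -1.21 to 15.9, array medians from 3.27 to 3.58, and replicate arrays correlated at 0.983 to 0.997. The number of arrays, 4 a group, limits the precision. Labels say the rats were separate animals, so p-values combine animal and technical spread. Scan dates were not used here.

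Probe sets were named from the platform annotation, and all 101 members matched RefSeq names of GRCr8 by Entrez ID. Short probes may also match close paralogues or pseudogenes, which subunit genes often have. Ndufa4 was counted in complex IV. In R 4.3.3, limma 3.58.1 estimated a mean per group for the 5323 probe sets above their array's 40th percentile on at least 4 arrays, for 6 comparisons, two-sided, adjusted by Benjamini-Hochberg. The fit was tested on simulated data. Values named are called members, the highest member of each complex, all probe sets of a called gene, Cox6c, the 5 probe sets nearest to it and the 2 largest called genes of each other list. For those lists and the cell markers the brightest tested probe set on average stood for a gene. Members, gene lists and tests were chosen with earlier results of these data known. Alternatives changed the filter, the variance prior, the arrays fitted, the scaling, array weights, a floor, a covariate and the replicate block, and left out each array in turn. Promoter windows came from RefSeq (GRCr8), and both strands were searched.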

Additional observations from a re-analysis of the deposited data

Results flagged for a closer look

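Of 156 groups of 4 arrays looked at, over 39 probe sets, 11 held 1 array far from the other 3 by Dixon's criterion, which chance meets in about 1 group in 20. On vehicle 4, Cox6c M27467_at read 5.19 (nearest vehicle array 7.89), Cox6b1 rc_AA946040_at 9.46 (8.46) and Ndufa6 rc_AI229924_at 4.95 (5.79). On vehicle 3, Ndufb5 rc_AA893185_at read 8.81 (8.36) and Atp5if1 M35300_f_at 5.46 (5.53). Among the D3T arrays, Atp5po D13127_at read 9.72 on D3T 3 (10.05), and on D3T 2 Ndufs4 rc_AI013297_at read 6.43 (6.73) and Cox7a2l rc_AI232307_at 6.64 (7.00). Among the TBD arrays, Ndufa6 rc_AA819547_at read 9.70 on TBD 1 (10.37), Cox8a rc_AI102505_at 7.20 on TBD 3 (6.58) and Uqcrfs1 M24542cds_g_at 10.92 on TBD 4 (11.49). No OLT array stood out in this way in these 39 probe sets. The effects of D3T and OLT differed in Cox8a rc_AI102505_g_at, by 0.61 (adjusted p 0.0312, limma), a difference tested directly between the 2 groups. This call was lost without any one of 7 arrays and under 5 of 11 other settings. The mean of the Cox8a probe sets differed by 0.47 and was not called (adjusted p 0.0835, limma).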

How the results depend on the processing

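The counts of called members moved with the settings. With D3T, 18 probe sets were called (20.7% against 18.4% of all tested), and 11 under median centring (12.6% against 22%). With array weights, whose estimate stopped before converging, 46 were called (52.9% against 42.5%). With OLT, 8 were called (9.2% against 11.3%), 4 under median centring (4.6% against 6.78%) and 23 with array weights (26.4% against 20%). With TBD, 4 were called (4.6% against 13%), 2 on the 8 arrays compared alone (2.3% against 6.84%) and 11 under quantile normalization (12.6% against 13.1%). Array weights gave 30 (34.5% against 25%), and a covariate for the 40th percentile of the array gave 9 (10.3% against 16.9%). Without OLT 1 and TBD 4 together 13 were called (14.9% against 16.2%). The TBD median was 0.092 under quantile normalization, against 0.00. Between D3T and OLT, 1 was called (1.15% against 1.07%). With an intensity trend and robust prior, with the replicate block and under median centring 0 were called (against 0.883%, 1.03% and 0.864%). Under quantile normalization and with the covariate 2 were called (2.3% against 1.73% and 2.8%), and 4 with array weights (4.6% against 3.21%). Leaving out 1 array gave 8 to 21 calls with D3T, 5 to 11 with OLT, 3 to 12 with TBD, 0 to 1 between D3T and OLT and between D3T and TBD, and 0 between TBD and OLT, and medians of 0.02 to 0.11 with D3T, -0.11 to -0.03 with OLT, -0.055 to 0.091 with TBD and 0.019 to 0.17 between TBD and OLT. The 21 with D3T and 11 with OLT, both without TBD 1, were 24.1% against 18.2% and 12.6% against 11.7% of all tested. The 3 with TBD were 3.45%, against 8.62% without vehicle 2 and 13.8% without vehicle 1. With the probe sets of a gene averaged, the differences of Ndufb5 rc_AA893185_at, both falls, changed sign, to gene differences of 0.24 with D3T and 0.077 with OLT, neither of them called. The causes were not tested. Of 21 calls of genes with several probe sets, 10 were lost in the gene mean.

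The replicate numbers did not pair the arrays: deviations of same-numbered arrays correlated at -0.52 to 0.32 (median -0.01) over 24 pairs, and 5 of 16 arrays correlated best with their own number. With the number as a replicate block, 16 probe sets were called with D3T, 7 with OLT and 4 with TBD. These are 18.4%, 8.05% and 4.6% of the members, against 16.7%, 9.88% and 11.8% of all tested probe sets.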
